A study of Mus musculus with 22 samples.

Results

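Bone morphogenetic proteins (BMPs) and transforming growth factor-beta (TGF-beta) are secreted ligands of a single receptor system. A ligand brings type II and type I receptor kinases together, the type I receptor phosphorylates receptor SMADs, and these enter the nucleus with the common partner SMAD4 to regulate genes such as the Id family. In the bone marrow, TGF-beta is known as a signal that holds hematopoietic stem cells in quiescence, and BMP signalling acts on both the stem cells and their niche. The 40 genes described here were taken from this pathway by name: 8 ligands, 6 type I receptors, 4 type II receptors, a co-receptor and a decoy receptor, 5 receptor SMADs, SMAD4, 2 inhibitory SMADs, 3 extracellular antagonists, 2 genes of ligand latency and processing, 4 intracellular inhibitors and 3 Id targets. Each of the 40 had 1 probe set annotated to it alone, out of 22025 genes measured on the array. The rule is a list of names and uses no measured value, but the names were chosen with earlier results of these data known.

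Long-term hematopoietic stem cells (LT-HSCs) were sorted as Lin- SLAM+ (CD48- CD150+) bone marrow cells from female C57BL/6J mice, and the RNA of each animal was hybridised to a separate Affymetrix Mouse Gene 2.0 ST array. The paper's staining for the sort also included Sca-1, cKit and CD34, and its abstract names the cells as CD34- LSK cells. The genes counted below as outside the sort gate are Cd48, Cd34, Flt3 and Il7r, of which Flt3 and Il7r were not in that staining. AHRVav1 mice carried 1 Vav1-Cre allele (Vav1-Cre+/-) and floxed Ahr alleles (Ahr fx/fx), so that the aryl hydrocarbon receptor gene was excised under the Vav1 promoter in the hematopoietic system, and AHRFX controls carried the same floxed alleles (Ahr fx/fx) without the Cre. The Cre itself was therefore present only in the AHRVav1 mice, and the deletion covered blood cells in general, not LT-HSCs alone. There were 6 animals of each genotype at 18 months and 5 of each at 2 months.

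The arrays of the 2 ages differed in quality. A probe set was taken as above background on an array when its level passed the 95th percentile of 1401 olfactory and vomeronasal receptor probe sets. These were assumed to be silent in blood cells, which was not tested. The paper lists some genes of these families as altered in AHRVav1 LT-HSCs. By this measure 52.3 to 58.7% of all probe sets were above background on the 18-month arrays and 24.4 to 34.3% on the 2-month arrays, and arrays of the same group correlated at 0.95 to 0.981 at 18 months and at 0.682 to 0.774 at 2 months. On log2(signal + 16), the scale of every level given here, the background itself lay at 5.36 to 5.56 at 18 months and at 6.22 to 6.8 at 2 months. Of the 8 measured LT-HSC markers, 7 were above background on every array of each 18-month group and 5 on every array of each 2-month group, while Fgd5 passed on none of the 2-month arrays. Of the 4 genes outside the sort gate, 3 passed on every array of each 18-month group and 1 on every array of each 2-month group. Of 10 granulocyte markers, 7 in AHRVav1 and 6 in AHRFX LT-HSCs passed on every 18-month array, and of 7 T and NK cell markers 1 in each. The markers are transcripts, and the purity of the sort was not tested. Ahr had a signal of 28 ± 7.62 in AHRVav1 and 52 ± 24.9 in AHRFX LT-HSCs at 18 months (SD, n = 6 each, limma log2 difference -0.57, SE 0.2, adjusted p = 0.793), and was above background on none of the 2-month arrays. No source states whether this probe set reads the deleted exon, and so it does not check the genotype.

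Between 23 and 28 of the 40 genes were above background on any 1 array at 18 months, against 4 to 10 at 2 months. The genes above background on all 12 arrays at 18 months were the ligand Tgfb1, the type I receptors Tgfbr1 and Acvr1b, the type II receptors Bmpr2 and Tgfbr2, the TGF-beta co-receptor Tgfbr3, Smad1, Smad2, Smad3, Smad4, Smad5 and Smad7, the repressors Ski and Skil, the ubiquitin ligase Smurf2, and Id2. Bmp2, Bmp6, Tgfb2, Bmpr1b, Smad9 and the antagonist Grem1 were above background on none of the 22 arrays. Tgfb1, which encodes the main TGF-beta isoform of blood cells, was the only member above background on all 22.

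Loss of AHR was compared with its control within each age. At 18 months, 2 members passed an unadjusted threshold of 0.05, one in each direction: the TGF-beta type I receptor Tgfbr1 was higher and the ligand Bmp4 lower in AHRVav1 LT-HSCs. This is 5% of the members, against 6.18% of all 26688 probe sets (3.09% in each direction). None of the 40 members, and 0% of all probe sets, passed after Benjamini-Hochberg adjustment over all probe sets in the limma test, so neither difference was a call. The methods' rule of 1.5-fold with p under 0.05, run as an ordinary test on the same values, took 0 members and 0.214% of all probe sets. No member separated the 12 animals by genotype without overlap, against 0.378% of all probe sets.

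The windows upstream of Tgfbr1 and Bmp4 are shown because these genes had the smallest p-values between genotypes and because the deleted factor binds DNA at a short core, GCGTG. Each is the 250 bases before the annotated start in RefSeq on GRCm38.p6, written 5' to 3' on the strand of the gene, with the core on either strand in capitals.
Tgfbr1, chr4:47352972-47353221, plus strand: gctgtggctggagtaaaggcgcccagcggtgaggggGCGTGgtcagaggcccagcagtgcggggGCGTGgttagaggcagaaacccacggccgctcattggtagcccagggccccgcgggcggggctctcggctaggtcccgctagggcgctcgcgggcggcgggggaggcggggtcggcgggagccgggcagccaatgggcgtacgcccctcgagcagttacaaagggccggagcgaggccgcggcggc
Tgfbr1, second start, chr4:47385966-47386215, plus strand: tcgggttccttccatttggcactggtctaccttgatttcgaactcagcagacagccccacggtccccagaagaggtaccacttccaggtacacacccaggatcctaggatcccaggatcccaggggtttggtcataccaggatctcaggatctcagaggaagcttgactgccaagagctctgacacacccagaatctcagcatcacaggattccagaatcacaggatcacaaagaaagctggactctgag
Bmp4, chr14:46390670-46390919, minus strand: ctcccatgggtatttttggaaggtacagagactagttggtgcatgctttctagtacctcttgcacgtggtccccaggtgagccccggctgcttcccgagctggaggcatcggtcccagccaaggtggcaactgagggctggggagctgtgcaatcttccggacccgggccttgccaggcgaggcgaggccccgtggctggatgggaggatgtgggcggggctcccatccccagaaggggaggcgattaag
The first Tgfbr1 window held 2 copies of the core, with their first bases at -214 and -186, and the second Tgfbr1 window and the Bmp4 window held 0. A window was matched for 27 of the 40 members (33 windows in all), and 17 of the 33 (51.5%) held GCGTG on either strand, against 28.2% of 32851 windows of the same length. The member windows were also richer in G and C, with a median of 66.8% against 52.4%. A second motif, the GC-rich SMAD element GGCGCC, was found in 10 of the 33 member windows (30.3%, against 9.59% of all windows) and the SMAD4 palindrome GTCTAGAC in 0 (0.167% of all windows). Both were searched on either strand, both are palindromes, and either can share only an end base with GCGTG. These matches are letters in a window and carry no measurement of binding.

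Tgfbr1 encodes the kinase that passes the TGF-beta signal to Smad2 and Smad3. Its level ran from 6.5 to 7.05, with a median of 6.81, in the 6 AHRVav1 animals, and from 6 to 6.72, with a median of 6.18, in the 6 AHRFX animals. The AHRVav1 mean was 0.47 higher on the log2 scale (SE 0.16, or 1.38-fold), with a limma p of 0.00901 before and 0.793 after adjustment, and all 6 AHRVav1 animals lay above the AHRFX mean. The overlap came from AHRFX replicates 1 and 2, at 6.68 and 6.72, which lay above AHRVav1 replicates 1 and 2, at 6.5 and 6.6. In replicates 3 to 6, the 4 AHRFX animals were at 6, 6.13, 6.09 and 6.23 and the 4 AHRVav1 animals at 6.87, 7.05, 6.75 and 6.87. Over these 8 animals, which leave out the ones that overlapped, the difference was 0.78 (SE 0.14) and was no call either (limma adjusted p = 0.369).

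Bmp4, a BMP ligand known for its role in the stem cell niche, lay on the other side. Its level in these animals ran from 4.97 to 5.73, with a median of 5.33, in AHRVav1 and from 5.54 to 5.77, with a median of 5.72, in AHRFX animals. It was above background on 1 of the 6 AHRVav1 arrays and on all 6 AHRFX arrays. The means differed by -0.38 (SE 0.13), with a limma p of 0.00943 before and 0.793 after adjustment, and the overlap came from AHRVav1 replicate 4 alone, at 5.73. The other AHRVav1 animals lay at 5.43 or below, under every AHRFX animal.

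**Figure D1:**
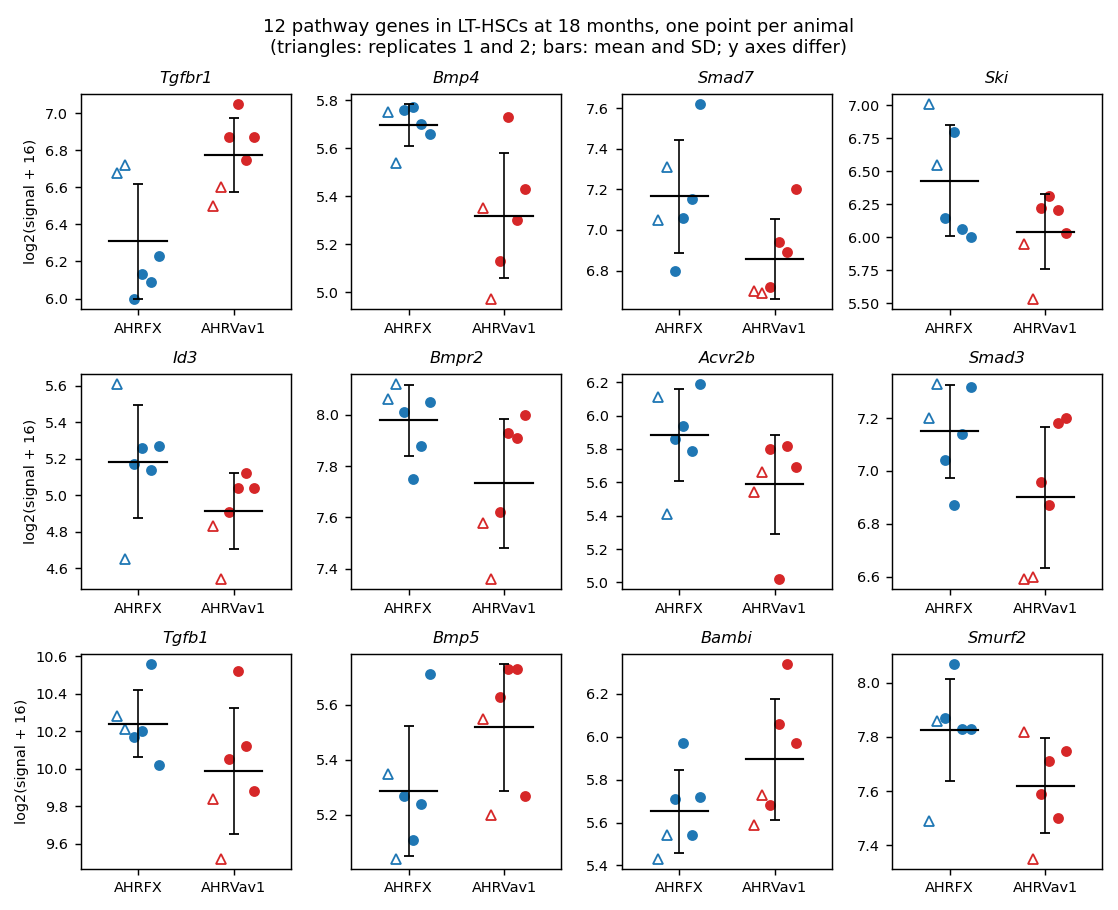
Levels of the 12 members with the smallest p-values between genotypes at 18 months, as log2(signal + 16) on y axes that differ between panels, in AHRFX and AHRVav1 LT-HSCs; each point is 1 animal, open triangles are replicates 1 and 2, and the bars are the mean and SD of 6 animals. Tgfbr1 runs from 6 to 6.72 in AHRFX and from 6.5 to 7.05 in AHRVav1, and the groups overlap in every panel.

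Most receptors other than Tgfbr1 lay below 0 (lower in AHRVav1 animals), and none of these passed the unadjusted threshold. Of the 6 type I receptors 5 lay below 0, from -0.28 (SE 0.17) for the BMP receptor Bmpr1a to -0.11 for the activin receptor Acvr1b and for Acvrl1. Of the type II receptors, Bmpr2, which binds BMPs, ran from 7.36 to 8 (median 7.76) in AHRVav1 and from 7.75 to 8.12 (median 8.03) in AHRFX animals, a difference of -0.24 (SE 0.13, limma adjusted p = 0.834). The activin receptor Acvr2b ran from 5.02 to 5.82 (median 5.68) and from 5.41 to 6.19 (median 5.9), a difference of -0.29 (SE 0.16, adjusted p = 0.834) that was -0.18 without AHRVav1 replicate 4. The TGF-beta type II receptor Tgfbr2, the partner of Tgfbr1, had a difference of 0.03 (SE 0.17). Tgfbr3, the co-receptor that presents TGF-beta, was at -0.26 (SE 0.18), and Bambi, a decoy receptor without a kinase, at 0.24 (SE 0.15), or 0.15 without AHRVav1 replicate 5.

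The ligands did not move as a group. Tgfb1 ran from 9.52 to 10.52 (median 9.97) in AHRVav1 and from 10.02 to 10.56 (median 10.2) in AHRFX animals, a difference of -0.25 (SE 0.15, limma adjusted p = 0.834). Tgfb3 was at -0.3 (SE 0.24), Tgfb2 at 0.22 (SE 0.14) and Bmp5 at 0.23 (SE 0.14), and 5 of the 8 ligands lay below 0. Bmp5 was above background on 4 of 6 AHRVav1 and 1 of 6 AHRFX arrays, and Tgfb2 on none.

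Among the SMADs, those of the TGF-beta and BMP branches lay close to 0 apart from Smad3. Smad1 and Smad5, the BMP-branch SMADs, were at -0.02 (SE 0.19) and 0.03 (SE 0.16), and Smad2 was at -0.06 (SE 0.12). Smad3, the other TGF-beta-branch SMAD, ran from 6.59 to 7.2 (median 6.92) in AHRVav1 and from 6.87 to 7.33 (median 7.17) in AHRFX animals, a difference of -0.25 (SE 0.14, limma adjusted p = 0.834). Smad4 was at -0.25 (SE 0.16). Smad7, the inhibitory SMAD that TGF-beta induces as feedback, ran from 6.69 to 7.2 (median 6.8) and from 6.8 to 7.62 (median 7.11), so that the means differed by -0.31 (SE 0.15, limma adjusted p = 0.815). Smad6, its BMP-branch counterpart, was at -0.07 (SE 0.19).

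All 4 intracellular inhibitors lay below 0. Ski, a repressor that binds SMAD complexes, ran from 5.53 to 6.31 (median 6.12) in AHRVav1 and from 6 to 7.01 (median 6.35) in AHRFX animals, a difference of -0.39 (SE 0.19, limma adjusted p = 0.82). Smurf2, a ubiquitin ligase that targets SMADs and receptors, was at -0.21 (SE 0.13), with 7.35 to 7.82 (median 7.65) and 7.49 to 8.07 (median 7.85). Its relative Smurf1 was at -0.1 (SE 0.14) and the Ski relative Skil at -0.07 (SE 0.15). The extracellular antagonists Nog, Chrd and Grem1, which trap BMPs, were at -0.2, -0.04 and 0.22 (SE 0.15, 0.17 and 0.17).

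The Id genes, inhibitors of differentiation that are direct targets of BMP-activated SMADs, did not move together. Id2 ran from 6.1 to 7.45 (median 7.04) in AHRVav1 and from 6.31 to 7.92 (median 7.35) in AHRFX animals, a difference of -0.4 (SE 0.27, limma adjusted p = 0.843) that was -0.24 without AHRVav1 replicate 1. Id3 was at -0.27 (SE 0.14, adjusted p = 0.832) and was above background on 1 of the 12 arrays. Id1 was at 0.11 (SE 0.24), with levels from 5.16 to 6.47 and from 5.13 to 6.28, and lay at -0.03 without AHRFX replicate 2.

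**Figure D2:**
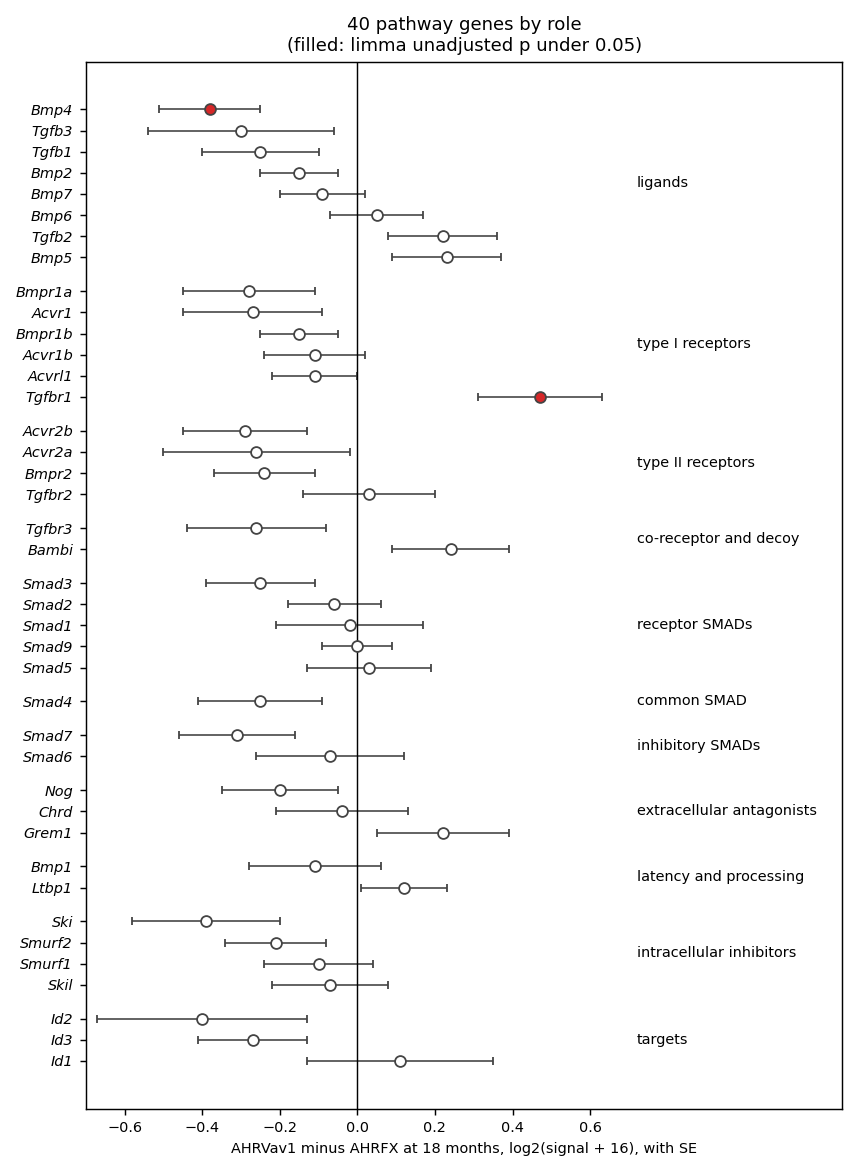
Difference of each of the 40 members between AHRVav1 and AHRFX LT-HSCs at 18 months on log2(signal + 16), with its standard error, grouped by role; filled points passed an unadjusted limma p of 0.05. Tgfbr1 at 0.47 and Bmp4 at -0.38 are filled, no member passed after adjustment, and 29 of the 40 points lie below 0.

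Counted together, 29 of the 40 members (72.5%) lay below 0 at 18 months, against 49.9% of all probe sets, and their median difference was -0.11 against 0 over all probe sets. The members share the same animals and are not independent of each other, so these shares are a description. The shift was uneven over the animals. The mean of the 40 members against the 12-animal mean was -0.15 and -0.14 in AHRVav1 replicates 1 and 2 and 0.12 and 0.12 in AHRFX replicates 1 and 2, and it ran from -0.02 to 0.01 in the other AHRVav1 and from -0.04 to 0.07 in the other AHRFX animals. Over replicates 3 to 6 alone 28 of 40 lay below 0 and the median was -0.05. There, Ski stood at -0.06, Bmpr2 at -0.06, Smad3 at -0.04 and Tgfb1 at -0.09, while Bmp4 stood at -0.32 and Id2 at -0.36. The mean over all probe sets moved by at most 0.02 in any of the 12 animals. What sets replicates 1 and 2 apart is not given in the labels.

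**Figure D3:**
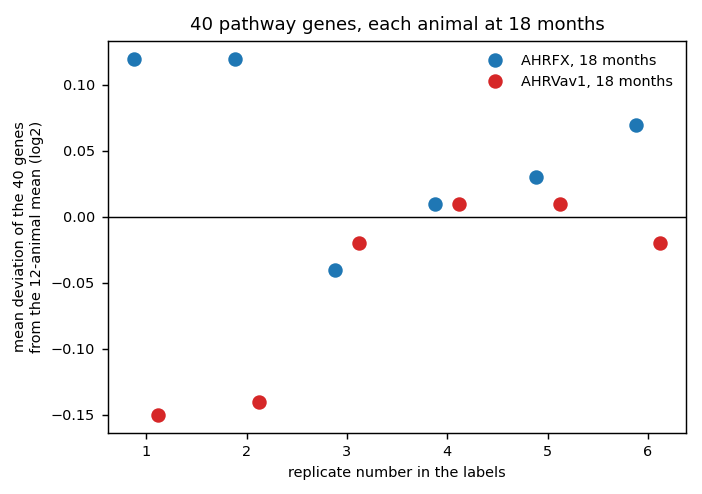
Mean deviation of the 40 members from their 12-animal means (log2) for each animal at 18 months, by the replicate number in the labels; blue points are AHRFX and red points AHRVav1. Replicates 1 and 2 lie at 0.12 in AHRFX and at -0.15 and -0.14 in AHRVav1, and the other 8 animals between -0.04 and 0.07.

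Marker genes lay to one side in the same arrays. At 18 months 8 of 8 LT-HSC markers lay below 0 in AHRVav1 LT-HSCs (median -0.19). So did 8 of 8 megakaryocyte and platelet markers (median -0.37), 7 of 7 endothelial markers (median -0.3) and 7 of 7 mast cell and basophil markers (median -0.25). Of the erythroid markers 4 of 5 lay above 0 (median 0.15). Also below 0 were 8 of 10 granulocyte markers (median -0.19), 7 of 8 of monocytes and macrophages (-0.22), 5 of 6 of B cells (-0.08), 5 of 7 of T and NK cells (-0.19), 6 of 9 of stromal and osteogenic cells (-0.16) and 4 of 4 genes of cells outside the sort gate (-0.22). At an unadjusted limma p under 0.05, 2 LT-HSC and 2 megakaryocyte and platelet markers were lower. So were 1 endothelial, 1 mast cell and basophil and 1 T and NK cell marker, against 3.09% of all probe sets. The other lists held none, and none of the markers in these lists passed after adjustment. The summed signal ran from 1680 to 2960 in AHRVav1 and from 2350 to 4480 in AHRFX animals for the megakaryocyte list, from 371 to 577 and from 407 to 793 for the endothelial list, and from 268 to 632 and from 380 to 564 for the 9 stromal and osteogenic markers. Of the stromal list, Lepr, Pdgfra and Bglap were above background on no 18-month array. The part of these cells in the members' differences was not tested, and in RNA from a whole sorted population fewer cells of a type cannot be told apart from less RNA per cell.

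At 2 months the members showed no common direction between genotypes. None passed after adjustment, and 1, the ligand Bmp2, passed an unadjusted threshold of 0.05, against 4.64% of all probe sets. Bmp2 was at 4.43, 4.58, 4.26, 4.34 and 4.57 in AHRVav1 and at 4.52, 4.74, 4.9, 4.68 and 5.12 in AHRFX animals (difference -0.36, SE 0.13, limma adjusted p = 0.966), all below background. The groups overlapped in the lowest AHRFX animal. The median over the members was 0.02, with 19 of 40 below 0, and the median SD of a member within a group was 0.509 in AHRVav1 and 0.452 in AHRFX animals, against 0.239 and 0.276 at 18 months.

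The larger 2-month differences moved with the animals included. Smad7 was at 7.69, 4.68, 4.89, 6.86 and 6.51 in AHRVav1 and at 5, 4.54, 4.05, 6.71 and 4.31 in AHRFX animals. The 3 high AHRVav1 values and the 1 high AHRFX value stood apart from the rest of their groups, and the difference of 1.2 (SE 0.67, limma adjusted p = 0.966) ran from 0.81 to 1.65 with each animal left out. Bmp4 was at 4.62, 4.38, 5.11, 4.45 and 8.11 in AHRVav1 and at 4.39, 4.22, 4.48, 4.14 and 4.5 in AHRFX animals, a difference of 0.99 (SE 0.62). Without AHRVav1 replicate 5, the animal at 8.11, it was 0.3 (limma adjusted p = 0.975). The same animal held the one high Ski value, 7.17 against 4.31 to 4.61 in the other AHRVav1 animals, and the Ski difference of 0.27 became -0.27 without it. Id2 was at -0.87 (SE 0.8) and at -0.17 without AHRFX replicate 3. Id1 was at -0.45 (SE 0.52), at -0.22 without AHRFX replicate 2 and at -0.82 without AHRVav1 replicate 3. Id3 was at 0.27 (SE 0.19) and at 0.16 without AHRVav1 replicate 3 or 5. Tgfb1, above background on all 10 arrays, was at 8.84, 9.1, 8.91, 9.39 and 8.7 in AHRVav1 and at 7.5, 8.02, 7.93, 9.65 and 8.98 in AHRFX animals (difference 0.57, SE 0.41, from 0.35 to 0.88 with each animal left out), and the groups overlapped.

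The genotype effect was then compared between ages in a fit of all 22 arrays. None of the 40 members passed after adjustment, against 0.0112% of all probe sets. Smad7 (-1.51, SE 0.66), Bmp4 (-1.37, SE 0.6), Id3 (-0.54, SE 0.24) and the type I receptor Acvr1 (-0.54, SE 0.26) passed an unadjusted 0.05, all with a lower genotype effect at 18 than at 2 months (adjusted p from 0.585 to 0.629); this is 10% of the members against 7.93% of all probe sets. For Bmp4 the value without AHRVav1 2-month replicate 5 was -0.67.

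The age of the animals was compared within each genotype. These fits join groups of unequal spread: the median SD of a probe set was 0.24 at 18 and 0.484 at 2 months in AHRFX, and 0.212 and 0.485 in AHRVav1 animals. On simulated data they made more false calls than the threshold allows, which limits the age calls and adjusted p-values below. Tgfb1 was recorded higher at 18 months in both genotypes, and it is the member whose age difference rests on arrays that all measured it. Age and the array quality given above still cannot be told apart in this difference. In AHRFX LT-HSCs its level ran from 7.5 to 9.65 (median 8.02) at 2 months and from 10.02 to 10.56 (median 10.2) at 18 months, a difference of 1.83 (SE 0.34, or 3.55-fold, limma adjusted p = 0.00155). In AHRVav1 LT-HSCs it ran from 8.7 to 9.39 (median 8.91) and from 9.52 to 10.52 (median 9.97), a difference of 1 (SE 0.21, or 2-fold, limma adjusted p = 0.0025). The ages did not overlap in either genotype. The age difference between genotypes differed by -0.83 (SE 0.41, limma unadjusted p = 0.0545, adjusted p = 0.637).

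In AHRFX LT-HSCs 14 members were called higher and 5 lower at 18 months, 47.5% of the 40 against 44.4% of all probe sets (20.2% higher and 24.2% lower). In AHRVav1 LT-HSCs 15 were called higher and 5 lower, 50% against 48.9% (22.8% higher and 26.2% lower). The members' median was 0.43 and 0.41, against -0.11 and -0.09 over all probe sets. The ages did not overlap for 12 members in AHRFX (30%, against 24.3% of all probe sets) and for 10 in AHRVav1 (25%, against 28.4%). Of the higher calls 9 were shared by both genotypes, 64.3% of the AHRFX and 60% of the AHRVav1 calls: Tgfb1, Tgfb3, the receptors Bmpr1a, Acvr1, Acvr1b, Tgfbr1, Tgfbr2 and Tgfbr3, and Smurf2. Of the lower calls 4 were shared, 80% of each: Tgfb2, Bmpr1b, Acvrl1 and Smad9.

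Most of the higher calls rest on a 2-month level below background: 10 of the 14 higher members in AHRFX and 8 of the 15 in AHRVav1 LT-HSCs were above background on no 2-month array. For these the recorded levels are given with the test, and the fitted difference is not a size of change. Some of them were barely measured at 18 months either. There, Tgfb3 was above background on 3 of 6 AHRFX and 2 of 6 AHRVav1 arrays, and Id3 on 1 of 6 AHRFX arrays. In AHRFX LT-HSCs, 8 of the 14 higher members were above background on no 2-month array and had an 18-month mean below the 2-month background, so that no fold could be given. Bmpr1a is an example: its level ran from 4 to 4.21 on the 2-month arrays, where the background averaged 6.36, and from 5.5 to 6.38 at 18 months (limma adjusted p = 1.19e-05). Ski and Skil were also above background on none of these 2-month arrays. Their 18-month means were 1.05-fold and 1.18-fold the mean 2-month background. These ratios compare means without their spread and are no firm lower limit. Single 18-month animals ran from 6 to 7.01 for Ski and from 6.15 to 6.9 for Skil, on both sides of 6.36. In AHRVav1 LT-HSCs 5 of the 15 higher members allowed no fold by the same rule. Tgfbr2 and Smad5, above background on 1 and 2 of the 5 2-month arrays, gave no fold above 1 either. With their 2-month values below background raised to it, they stood at 0.77-fold and 0.988-fold. The 18-month means of Tgfbr3, Smad4 and Id2 were 1.19-fold, 1.29-fold and 1.23-fold the mean 2-month background of 6.56. Their lowest 18-month animals lay at 6.58, 6.64 and 6.1. Of the 4 shared lower members, Tgfb2, Bmpr1b and Smad9 were below background on every array of both ages, and Acvrl1 was above it on 4 of the 22.

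Among the receptors, 4 of 6 type I receptors were called higher and 2 lower in each genotype, against the 20.2% higher and 24.2% lower of all probe sets in AHRFX and 22.8% and 26.2% in AHRVav1 LT-HSCs. All 4 of the higher ones in AHRFX and 3 of the 4 in AHRVav1 animals were above background on no 2-month array. Acvr1b, an activin receptor, ran from 4.47 to 5.6 at 2 months and from 5.93 to 6.43 at 18 months in AHRFX animals (limma adjusted p = 0.00103) and from 4.1 to 5.6 and from 5.82 to 6.32 in AHRVav1 animals (adjusted p = 0.0016). Acvr1, a BMP type I receptor, ran from 4.07 to 4.7 and from 5.58 to 6.18 in AHRFX animals (adjusted p = 8.8e-05). The 18-month mean of each gene lay below the mean 2-month background, so that neither allowed a fold. Tgfbr1 was above background on 1 of 5 2-month arrays in AHRVav1 and on none in AHRFX animals (limma adjusted p = 0.0187 and 0.00271). Acvrl1, a type I receptor best known in endothelium, and the BMP receptor Bmpr1b were called lower in both genotypes, with recorded differences of -0.65 and -0.4 in AHRFX and of -0.69 and -0.52 in AHRVav1 animals. The TGF-beta receptor Tgfbr2 was called higher in both genotypes, but it was above background on 0 of 5 AHRFX and 1 of 5 AHRVav1 arrays at 2 months, and its 18-month means of 6.19 and 6.22 lay below the mean 2-month backgrounds of 6.36 and 6.56. Tgfbr3 was above background on 2 of 5 AHRFX and 0 of 5 AHRVav1 arrays at 2 months, and its 18-month means were 7.07 and 6.8. For Tgfbr3 in AHRFX animals (adjusted p = 0.0473), the call was lost without any 1 of 9 of the 11 animals, and for Tgfbr2 in AHRVav1 animals (adjusted p = 0.0246) without 2-month replicate 1, 3 or 5. Other calls that single animals decided were Tgfb3 (lost without any 1 of 8 animals), Bmpr1b (6) and Acvrl1 (2) in AHRFX, and Smad5 (7), Acvr2a (6) and Tgfb2 (2) in AHRVav1.

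Smad1, Smad2, Smad4 and Smad5 were called higher in AHRVav1 only, but the difference between genotypes was called for none of them. The recorded age difference of Smad1 was 2.04 (SE 0.45), that of Smad2 1.49 (SE 0.48) and that of Smad5 1.01 (SE 0.36) in AHRVav1 LT-HSCs, where 1, 1 and 2 of the 5 2-month arrays were above background. With the 2-month values below background raised to it, these differences were 0.85, 0.71 and -0.02. In AHRFX LT-HSCs the same genes were at 1.34 (SE 0.6), 1.47 (SE 0.72) and 0.31 (SE 0.61), each with 2 of 5 2-month arrays above background. The recorded differences are therefore no size of change. Smad4, below background on every AHRVav1 2-month array (limma adjusted p = 0.00169), had the ratio to background given above, and it was at 0.68 (SE 0.54) in AHRFX LT-HSCs. The AHRFX 2-month animals spread widely in these genes: Smad2 was at 4, 5.14, 7.8, 4.74 and 8.66, and Smad4 at 6.45, 5.83, 5.41, 5.81 and 8.99. Without AHRFX 2-month replicate 5 the Smad4 age difference was called in AHRFX as well (adjusted p = 0.00441). Smad3 was called in neither (0.28 and -0.3).

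Conversely, Smad7, Bmp4, Ski, Skil and Id3 were called higher in AHRFX only, and again the difference between genotypes was called for none of them. Skil had nearly the same recorded difference in both, 1.04 (SE 0.29, limma adjusted p = 0.0139) in AHRFX and 1.02 (SE 0.43, adjusted p = 0.0633) in AHRVav1 animals. Smad7, above background on 1 of 5 AHRFX 2-month arrays, was at 2.24 (SE 0.41, limma adjusted p = 0.00136) in AHRFX animals. With the 2-month values below background raised to it, this AHRFX difference was 0.73. In AHRVav1 animals the recorded Smad7 difference was 0.73 (SE 0.48, limma adjusted p = 0.221), and 1.12 (adjusted p = 0.0427) without AHRVav1 2-month replicate 1. Bmp4 ran from 4.14 to 4.5 at 2 months, all below background, and from 5.54 to 5.77 at 18 months in AHRFX animals (adjusted p = 1.1e-05). In AHRVav1 animals its difference was -0.01 (SE 0.55), and 0.68 (adjusted p = 0.00952) without AHRVav1 2-month replicate 5. Ski was called in AHRFX animals (adjusted p = 0.000287, with the ratio to background given above) and stood at 1.03 (SE 0.44, adjusted p = 0.0689) in AHRVav1 animals, and without the same animal the latter was called (adjusted p = 6.73e-05). Id3 was above background on 1 of the 22 arrays. Smurf2 was called in both genotypes. Its level ran from 4.77 to 6.7 at 2 months, where 1 of 5 arrays was above background, and from 7.49 to 8.07 at 18 months in AHRFX animals (limma adjusted p = 0.000255), and it was called in AHRVav1 animals with adjusted p = 0.00204. Id2 was called in AHRVav1 animals (adjusted p = 0.000707, none of the 2-month arrays above background) and not in AHRFX animals (1.47, SE 0.71, adjusted p = 0.103), of which 2 of 5 were above background at 2 months, at 8.57 and 7.05.

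**Figure D4:**
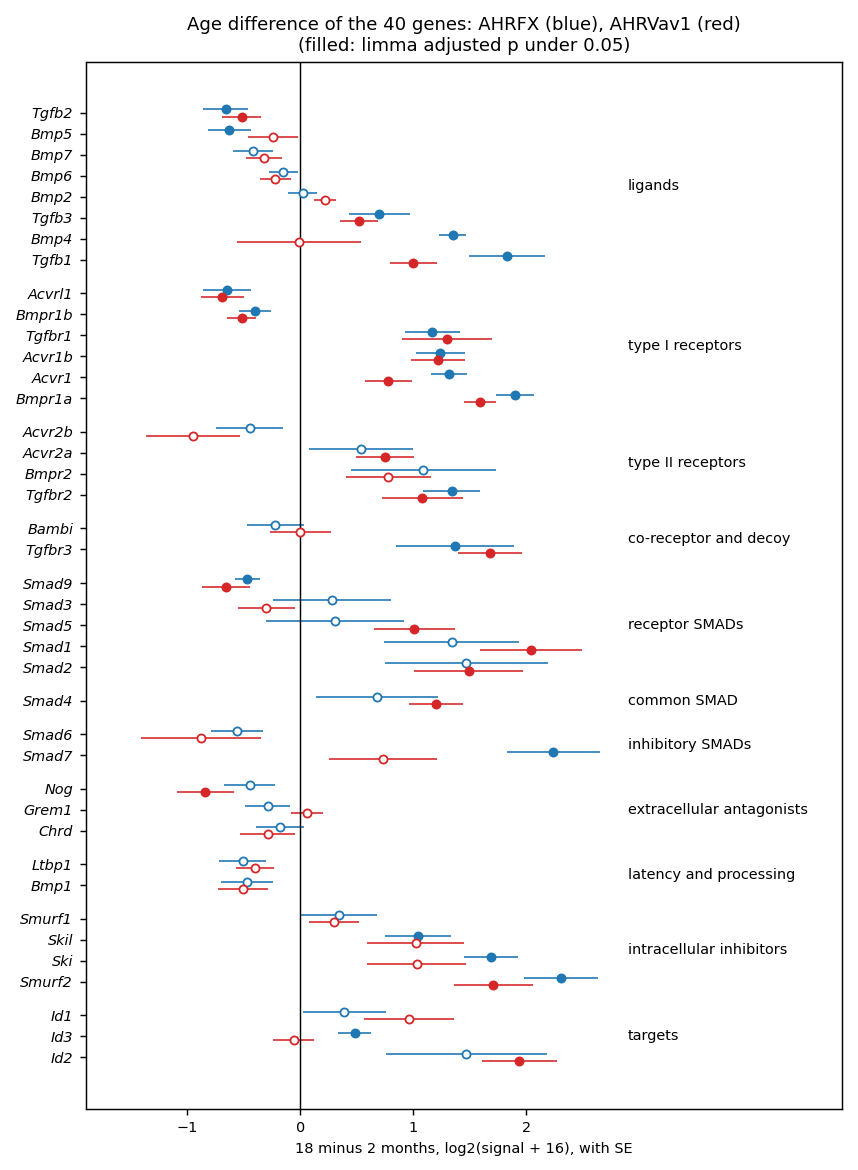
Age difference (18 minus 2 months) of each of the 40 members on log2(signal + 16), with its standard error, in AHRFX (blue) and AHRVav1 (red) LT-HSCs, grouped by role; filled points had an adjusted limma p under 0.05. In AHRFX 14 filled points lie above 0 and 5 below, and in AHRVav1 15 and 5; most of the higher ones have 2-month levels below background, so that their distance from 0 is no size of change.

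The age comparison moved together with the array quality given above, and the 2 cannot be told apart, since neither the detected share nor the array correlation overlapped between the ages. The 1401 receptor probe sets used for the background had a median age difference of -0.25 in AHRFX and -0.28 in AHRVav1, with 35.3% and 43.9% of them called lower and 0.357% and 0.785% higher. Markers of other cells differed too. In AHRFX animals 6 of 8 monocyte and macrophage, 4 of 8 megakaryocyte and platelet, 4 of 5 erythroid, 4 of 10 granulocyte, 3 of 7 endothelial, 2 of 7 mast cell and basophil and 2 of 4 markers outside the sort gate were called higher at 18 months and none of these lists held a lower call, against 20.2% of all probe sets called higher and 24.2% lower. The other lists held lower calls as well: 1 stromal marker of 9 was higher and 2 lower, 2 of 7 T and NK cell markers were higher and 2 lower, 1 of 8 LT-HSC markers was higher and 1 lower, and of 6 B cell markers 0 were higher and 2 lower. In AHRVav1 animals (22.8% and 26.2% of all probe sets) the higher calls were 6 monocyte and macrophage, 4 megakaryocyte and platelet, 2 erythroid and 3 markers outside the gate, with 0 lower in each. There, 1 granulocyte, 1 endothelial and 1 stromal marker were higher and 1 of each lower, and the mast cell and basophil, T and NK cell, LT-HSC and B cell lists had 3, 2, 1 and 0 higher and 2 lower each. The summed monocyte and macrophage signal ran from 949 to 3180 at 2 months and from 3430 to 5510 at 18 months in AHRFX animals, and from 531 to 2000 and from 1730 to 5540 in AHRVav1 animals. Their part in the members' age differences was not tested.

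**Figure D5:**
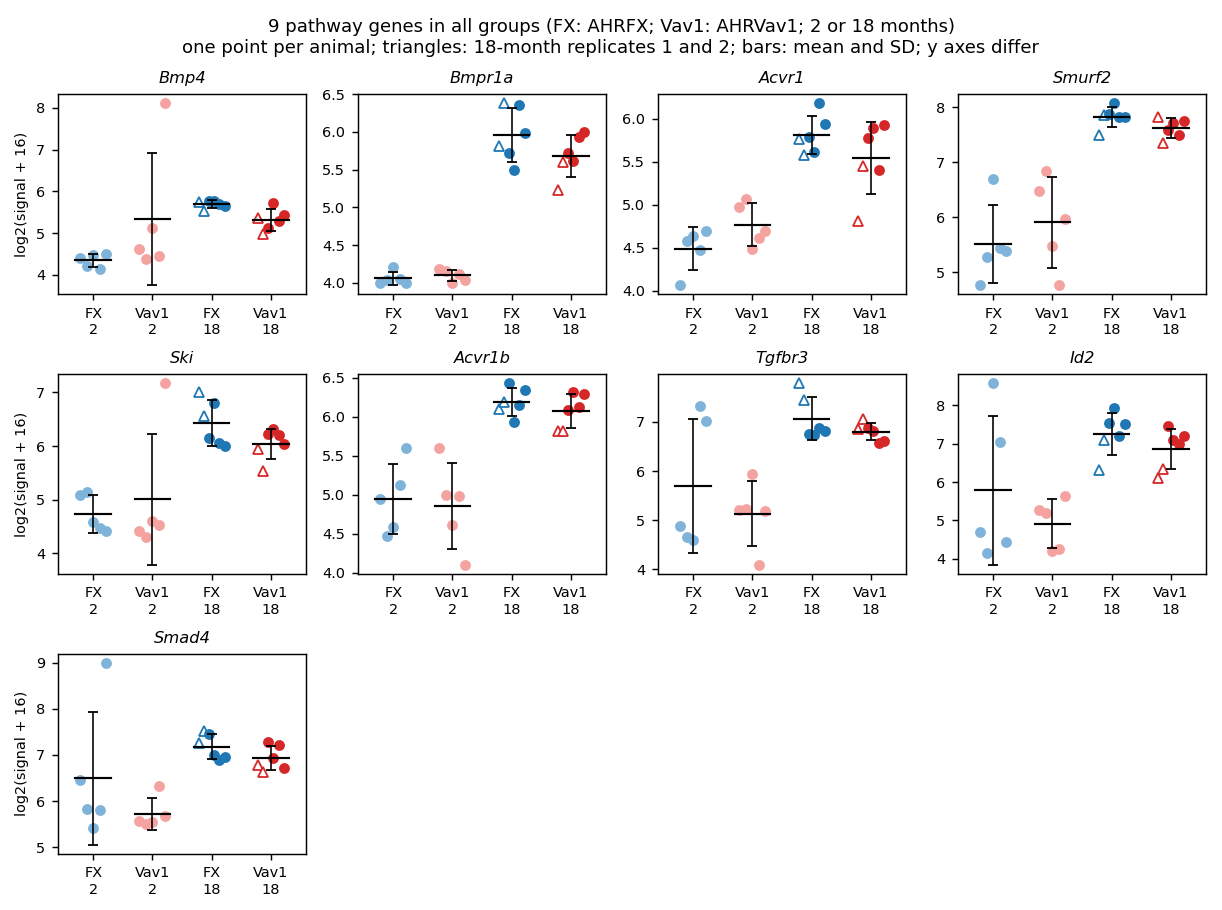
Levels of the 9 members named for the age comparisons in all 4 groups, as log2(signal + 16) on y axes that differ between panels; each point is 1 animal (5 per group at 2 months, 6 at 18 months), open triangles are 18-month replicates 1 and 2, and bars are the mean and SD. Bmpr1a lies between 4 and 4.21 at 2 months and between 5.23 and 6.38 at 18 months, and in Bmp4 and Ski 1 AHRVav1 animal at 2 months stands far above the others.

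A wider list of 93 measured pathway genes outside the 40 was compared in the same way. Between genotypes at 18 months none passed after adjustment, 1 was higher and 4 lower at an unadjusted 0.05 (5.38%, against 6.18% of all probe sets), and 52 of 93 lay below 0 (median -0.03). Neo1, a co-receptor that binds BMP co-receptors of the RGM family, ran from 6.41 to 7.18 in AHRVav1 and from 6.81 to 8.28 in AHRFX animals (difference -0.61, SE 0.23, limma unadjusted p = 0.0166, adjusted p = 0.793). Nedd4l, a ubiquitin ligase of SMAD2 and SMAD3, was the one gene of the list whose groups did not overlap (1.08%, against 0.378% of all probe sets), at 5.19 to 5.53 and 5.59 to 5.88 (difference -0.29, SE 0.11, unadjusted p = 0.0174, adjusted p = 0.793). These levels lie close to the 18-month background of 5.36 to 5.56, which Nedd4l passed on 2 of 6 AHRVav1 and 6 of 6 AHRFX arrays. Bgn, a matrix proteoglycan that binds TGF-beta, was at -0.51 (SE 0.19), and the ligand Gdf9 at 0.28 (SE 0.11). Gdf9 was above background on 3 of 6 AHRVav1 and 0 of 6 AHRFX arrays.

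At 2 months 3 of the 93 were higher and 3 lower at an unadjusted 0.05 (6.45%, against 4.64% of all probe sets) and none passed after adjustment. The inhibitor of apoptosis Xiap, which also links BMP receptors to TAK1, was at 1.82 (SE 0.64), and the ubiquitin ligase subunit Skp2 at -1.32 (SE 0.4), with adjusted p = 0.966 for each in limma. Each was above background on 1 of 5 AHRFX arrays at 2 months, and Skp2 on 0 of 5 AHRVav1 arrays. These are therefore recorded differences and no size of change. With age, 19 were called higher and 16 lower in AHRFX, and 18 and 21 in AHRVav1 LT-HSCs (37.6% and 41.9% of the 93, against 44.4% and 48.9% of all probe sets). Tgfbi, a gene induced by TGF-beta, ran from 4.39 to 5.04 at 2 months and from 8.29 to 9.7 at 18 months in AHRFX animals. Its 18-month mean was 5.99-fold the mean 2-month background (limma adjusted p = 6.25e-06 for age). In the same animals 6 of 8 monocyte and macrophage markers were called higher, and the part of these cells in the Tgfbi difference was not tested. Skp2 ran from 4.15 to 4.93 and from 7.58 to 8.01 in AHRVav1 animals, and its 18-month mean was 2.45-fold that background (adjusted p = 2.66e-06 for age). All of these 2-month values lay below background, and each ratio is taken against the background of its own genotype. The genotype effect differed between ages for none of the 93 after adjustment, with Skp2 at 1.71 (SE 0.48, limma adjusted p = 0.388) and Xiap at -2.04 (SE 0.65, adjusted p = 0.471) the genes of smallest p. Both values include the dim 2-month arrays and are no size of change either.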

How the data were processed

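LT-HSC RNA was amplified with the Nugen WT-Ovation PicoSL kit and hybridised to 22 arrays, 1 per animal. The authors made the deposited values in Affymetrix Expression Console by IterPLIER, and they are linear intensities, background-subtracted and quantile-normalized, and 4490 values are 0. Of 26688 probe sets, 23321 had 1 gene symbol in the platform annotation, 1802 several and 1565 none, and the latter 2 kinds name no gene here. All 26688 were taken as log2(signal + 16), which understates changes of dim genes, and fitted with limma 3.58.1 in R 4.3.3 (lmFit, eBayes with trend; the study's methods name no covariate), each pair of groups alone and the genotype-by-age term over all arrays, with Benjamini-Hochberg adjustment over all probe sets and a two-sided threshold of 0.05. The methods' t-test was run on the same values. The number of arrays limits the precision.

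The members, roles, wider pathway list (93 of 102 genes with a probe set of their own) and marker lists (79 of 88) were chosen with earlier results of these data known. Named are the 12 members of smallest p at 18 months and 6 in each other comparison, with Id1, Id2 and Id3 between genotypes, and the 4 genes of smallest p of the wider list (fewer are printed); other members appear within their role. An alternative with replicates 3 to 6 alone was fixed for the genotype comparison at 18 months because those results showed replicates 1 and 2 apart, and added for age after the data were seen. The fits were tested on simulated data, where the age comparisons, between groups of unequal spread, made more false calls than the threshold allows. No 2 arrays held identical values. Promoter windows were matched by symbol, and sequences are from RefSeq.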

Additional observations from a re-analysis of the deposited data

Results flagged for a closer look

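Dixon's 95% critical value was applied to 61 sets of values. Each was 1 gene in 1 group of a comparison for which the naming rule picked that gene. Of these sets, 4 held an animal whose distance to the nearest other animal passed the critical value, and chance alone gives about 1 in 20. Other values given above were not tested in this way, among them Ski in AHRVav1 animals at 2 months, with its 1 high value of 7.17. Bmp4 in AHRVav1 replicate 5 at 2 months was at 8.11, with the next animal at 5.11. Smad4 in AHRVav1 replicate 4 at 2 months was at 6.33, with the next at 5.67. Bmpr1a in AHRFX replicate 3 at 2 months was at 4.21, with the next at 4.05, both below background. Acvr2b in AHRVav1 replicate 4 at 18 months was at 5.02, with the next at 5.54. No member had a genotype effect that differed between ages after adjustment in limma, and 4 did at an unadjusted p under 0.05.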

How the results depend on the processing

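Between genotypes no member passed after adjustment under any alternative run, at either age or in their difference. At 18 months the members' median difference of -0.11 was -0.18 with an offset of 1 and -0.25 over the probe sets with a mean signal above the median of all (22 members, 17 below 0), and ran from -0.15 to -0.1 with each animal left out, with 25 to 32 members below 0. Id1 reversed to -0.03 without AHRFX replicate 2. With age in AHRFX, the median of 0.43 was 0.84 with an offset of 1, 0.17 with an offset of 64, 1.09 over these brighter probe sets (17 members), 0.3 after quantile normalization again and 0.27 with arrays centred on their median, and ran from 0.33 to 0.59 with each animal left out; the calls were 6 over the brighter probe sets, where fewer members were tested, and 15 to 22 with each animal left out. In AHRVav1 the median of 0.41 was 0.76, 0.18, 1.02 (18 members), 0.27 and 0.23 under the same settings and 0.3 to 0.6 with each animal left out, and the calls 11 over the brighter probe sets and 18 to 21. For the offsets the shift follows from the scale, and for the others the cause was not tested. Of the age calls, 15 of 19 in AHRFX and 16 of 20 in AHRVav1 were made with every single animal left out. With replicates 3 to 6 alone at 18 months 14 and 15 members were called, and with array weights 13 and 18.

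The replicate numbers of the labels did not meet the rule for pairs, a correlation over 0.1 in every pair: same-numbered residuals of the genotypes correlated at -0.124 to 0.252 at 18 months and at 0.00465 to 0.0621 at 2 months, and 3 of 6 animals at 18 months correlated best with their own number. The mean at 18 months was 0.145 for same-numbered and -0.0273 for other pairs, and by sets of numbers it was 0.215 within replicates 1 and 2, 0.0822 within replicates 3 to 6 and -0.133 across these sets. With the replicate number as a block, 12 members were called with age in AHRFX and 14 in AHRVav1, against 19 and 20, and 0 between genotypes at either age (medians -0.11 and 0.02) and for their difference. Averaging all probe sets of a gene changed nothing, since each member had 1. The 2-month arrays, with 4 to 10 members above background each, limit what can be read there.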
